A study of Mus musculus with 2 samples.

Results

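Macrophages carrying RNA of Lyve1, Folr2, Cd209f or Cbr2 were examined in irradiated and unirradiated tumors of MC38, a colon carcinoma line of the mouse. Members were chosen by their measured UMIs, and a barcode counted as 1 when it held at least 2000 UMIs (unique molecular identifiers, each marking 1 captured RNA molecule), at most 25% mitochondrial UMIs, no UMI of Cd3d or Cd3g, at least 10 UMIs of C1qa, C1qb and C1qc together and more of these than of Ly6c2, Ccr2 and Chil3, fewer than 5 UMIs of the cycling genes Mki67, Top2a, Birc5, Ube2c and Pclaf, and at least 3 UMIs of Lyve1, Folr2, Cd209f and Cbr2 together. This gave 225 members of 7408 barcodes with at least 2000 UMIs and at most 25% mitochondrial UMIs, 192 of 4249 in Control and 33 of 3159 in IR. The cycling limit left out 15 of 207 otherwise qualifying barcodes in Control and 2 of 35 in IR. All other barcodes that met the same conditions except the last, 1188 in Control and 373 in IR, are called the other C1q macrophages.

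Both libraries came from CD45+ cells sorted out of MC38 tumors in wild-type (WT) mice. The Control tumors were not irradiated, and the IR tumors had received 1 dose of 20 Gy, 4 days before the cells were collected. The methods describe the pooling of 4 tumors into each library, so each group was 1 library without a replicate, and an effect of irradiation and a difference between the libraries cannot be told apart. The sample records also name a narrower cell type, CD45+CD11b+Ly6Chi, whereas barcodes of T cell and NK cell gates were present in both libraries.

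Lyve1 encodes a receptor for hyaluronan, Folr2 a folate receptor, Cd209f a C-type lectin of the DC-SIGN family and Cbr2 a carbonyl reductase. Tissue-resident macrophages of many organs, above all those lying along blood vessels and in connective tissue, carry several of these genes and are known for uptake of debris and proteins, in part through the mannose receptor Mrc1 and the hemoglobin scavenger receptor Cd163. Retnla and Ccl8, a secreted resistin-like protein and a chemokine, are typical of the same cells, and Retnla is a well-known target of IL-4.

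In GRCm38 (GENCODE vM21), Lyve1 lies at chr7:110850607-110863239 and Folr2 at chr7:101839988-101857194, both on the minus strand, Cd209f at chr8:4102787-4105835 and Cbr2 at chr11:120729489-120732114, also on the minus strand. Retnla lies at chr16:48842551-48844461 and Ccl8 at chr11:82115185-82116799, both on the plus strand.

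The question was what share of the tumor macrophages these cells made up and what they transcribed in irradiated and unirradiated tumors. Members were 13.9% of all C1q macrophages in Control (192 of 1380, exact 95% binomial interval 12.1 to 15.9%) and 8.13% in IR (33 of 406, 5.66 to 11.2%). The ratio of the shares was 0.58 (95% interval 0.41 to 0.83). All such intervals, and those of UMI counts, cover counting error only and say nothing of the spread between tumors. The C1q macrophages as a whole were 32.5% of barcodes in Control and 12.9% in IR, so members were 4.52% of all barcodes in Control and 1.04% in IR, a ratio of 0.23 (0.16 to 0.33). The gate of Ly6c2, Ccr2 and Chil3 monocytes was at 14.97% in Control and 31.6% in IR.

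The share depended on how many resident UMIs were asked for. At 10 or more UMIs, 68 Control barcodes (4.93% of C1q macrophages) and 8 IR barcodes (1.97%) were left, with a ratio of 0.40. Of the members themselves, 35.4% in Control and 24.2% in IR reached this level. When each C1q macrophage was thinned to 2000 UMIs, 8.70% in Control and 4.19% in IR held at least 2 resident UMIs, so the order of the libraries was the same at equal depth. The rule itself cut through a continuous range, with 31 Control and 10 IR members just inside it at 3 UMIs and 59 and 12 macrophages just outside it at 2. In Control the cells just inside had 798 CPM (a gene's UMIs summed over the cells, scaled to the same total for every set of cells) of Ccl8 and those just outside 398 CPM, and in IR the values were 38.7 and 68.8 CPM.

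**Figure D1:**
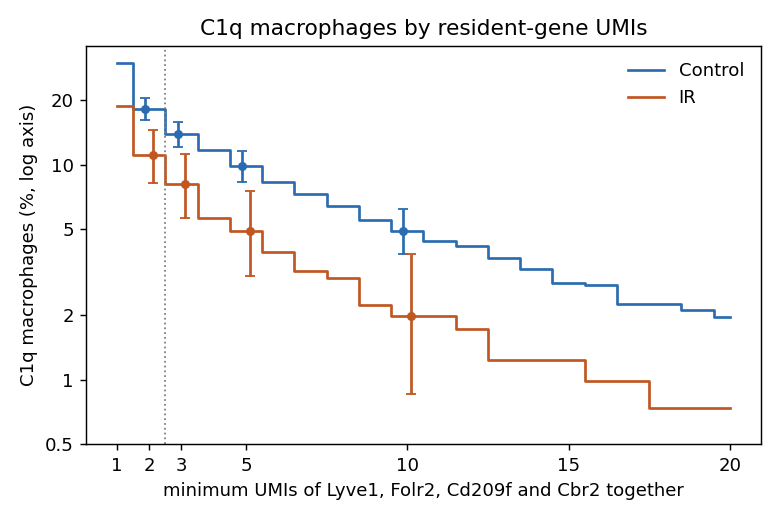
Share of C1q macrophages (percent, log axis) with at least a given number of UMIs of Lyve1, Folr2, Cd209f and Cbr2 (x axis), as steps for Control and IR, with exact 95% binomial intervals at 2, 3, 5 and 10 UMIs. The IR share lay below the Control share at 3 UMIs, the limit used (dotted line), with 8.13% against 13.9%, and at 10 UMIs, with 1.97% against 4.93%.

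RNA free in the suspension can put single UMIs of these genes into other cells. At least 1 resident UMI was found in 3.99% of the T cell gate in Control and 3.42% in IR (median depths 5843 and 9184 UMIs), and in 4.03% and 1.57% of the NK cell gate. At the limit of 3 UMIs the T cell gate held 1 of 451 barcodes in Control and 2 of 380 in IR. The monocyte gate, which the rule leaves out by its C1q condition, held 1 of 636 (0.157%) and 8 of 998 (0.802%). The NK cell gate held 0 of 273 and 0 of 382, which allows shares of up to 1.10% and 0.785%. Members had a median of 7864.5 UMIs in Control and 8892 in IR, and their sums were 1652925 and 351040 UMIs. A count of 3 UMIs, taken as the floor for a gene at 0, thus stood for 1.81 CPM in Control and 8.55 CPM in IR.

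The 4 genes of the rule are described without a test, since they chose the cells. Folr2 UMIs occurred in 95.3% of Control members and 97.0% of IR members, at 678 and 513 CPM. Cbr2 was found in 65.6% and 48.5%, at 281 and 191 CPM. Lyve1 was found in 70 of 192 Control members (36.5%) and 6 of 33 IR members (18.2%), at 188 and 79.8 CPM. Cd209f was found in 18.75% of Control members, at 150 CPM, and in 0 of 33 IR members, which allows a share of up to 9.09%. Folr2 gave 52.3% of the resident UMIs in Control members and 65.5% in IR members. Folr2 was the only gene of the 4 in 52 Control members (27.1%) and 15 IR members (45.5%), and all 4 genes were present in 24 Control members and in 0 of 33 IR members.

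The macrophage identity of the members was read from genes outside the rule. Adgre1, which encodes the F4/80 antigen, was at 320 CPM in Control and 333 CPM in IR. Csf1r, the receptor for the survival factor CSF1, was at 550 and 382 CPM. Cd68, a lysosomal membrane protein, was at 560 and 558 CPM, and the pan-leukocyte gene Ptprc at 370 and 461 CPM. Lists of other cell types were low in both libraries for dendritic cells (28.4 and 17.1 CPM summed), fibroblasts (9.68 and 5.70), blood and lymphatic endothelium (10.9 and 19.9, with the lymphatic genes Prox1 and Flt4 at 0 in both), epithelial tumor cells (1.21 and 0), erythroid cells (0.605 and 2.85) and mast cells (0 and 0). The endothelial list bears on the name, because lymphatic vessels carry Lyve1 as well. The B cell list was at 111 and 48.4 CPM, and its 1 counted gene, the immunoglobulin chain Ighm, was at 96.8 and 42.7 CPM (log2 ratio -1.02). The summed neutrophil list was at 68.4 CPM in Control members, with 1 of 7 genes at 0, and at 1148 CPM in IR members, with 0 of 7 at 0, and 1 IR cell held 231 of its 403 UMIs. The NK cell list was at 122 and 541 CPM and the monocyte list at 420 and 1216 CPM, with no gene at 0, while the T cell list was at 59.3 and 45.6 CPM.

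Both marker genes that the rule did not use, Retnla and Ccl8, had higher summed levels in members than in the other C1q macrophages of the same library. Ccl8, a chemokine that draws monocytes and lymphocytes, was at 2234 CPM in Control members against 86.4 CPM in the other Control macrophages, and at 407 against 18.8 CPM in IR. The log2 ratio of members over others, on the scale of log2(CPM + 10) used for every ratio here, was 4.54 in Control and 3.86 in IR. Retnla was at 3546 CPM in Control members and 530 CPM in the others, and at 1840 and 268 CPM in IR, with log2 ratios of 2.72 and 2.73. In IR all 646 Retnla UMIs of the members lay in 5 of 33 cells, 295 of them in 1 cell, and the 8 IR members with 10 or more resident UMIs held 0. This comparison held 2732 genes with a mean level of at least 50 CPM. Of these, 41 (1.5%) were higher in members by a log2 ratio of at least 1 in both libraries, and 20 (0.732%) were lower. No interval entered this limit. On the list of resident and alternative activation genes, 10 of 14 counted genes were among the higher, with list medians of 2.63 in Control and 1.71 in IR. The markers and this list were chosen with earlier results of these data known, so the count is a description of these cells.

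The genes with the largest excess in both libraries, ranked by the smaller of their ratios are described first, and they were picked by rank and not by theme. Ltc4s, which makes leukotriene C4, had log2 ratios over the other macrophages of 2.93 in Control and 3.68 in IR. Pltp, a phospholipid transfer protein, had 2.43 and 2.92, and Apoe, a lipid carrier, 1.92 and 1.61. The lipid-handling list as a whole had 2 of 19 counted genes higher in members in both libraries. F13a1, the A subunit of coagulation factor XIII, had ratios of 2.87 and 2.65. Selenop, a selenium carrier, had 2.71 and 2.45. The metalloproteinase inhibitor Timp2 had 1.91 and 1.93. The monocyte chemokine Ccl7 was also among them, with 1.965 and 1.80, and the myelin protein gene Pmp22, with 2.34 and 2.52. Serpinb6a, a protease inhibitor, had 2.08 and 2.59, and the lectin Clec10a 3.11 and 1.78.

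Genes lower in members than in the other C1q macrophages numbered 20, of which the 8 with the largest deficit at a mean of at least 100 CPM follow. The interferon-induced membrane protein gene Ifitm1 had log2 ratios of -2.32 in Control and -3.25 in IR. The decoy receptor Il1r2 had -1.58 and -1.94, and the neutrophil chemokine Cxcl3 -1.91 and -1.23. Itgax, which encodes CD11c, was at -1.14 and -2.07, and Ass1, which makes argininosuccinate for arginine synthesis, at -1.39 and -1.65. The aspartic protease Napsa had -1.44 and -1.43. Ccl17, a chemokine of activated dendritic cells and macrophages, was at -1.77 in Control and -4.68 in IR, where the members held 1 UMI. AA467197 had -1.37 and -1.61.

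**Figure D2:**
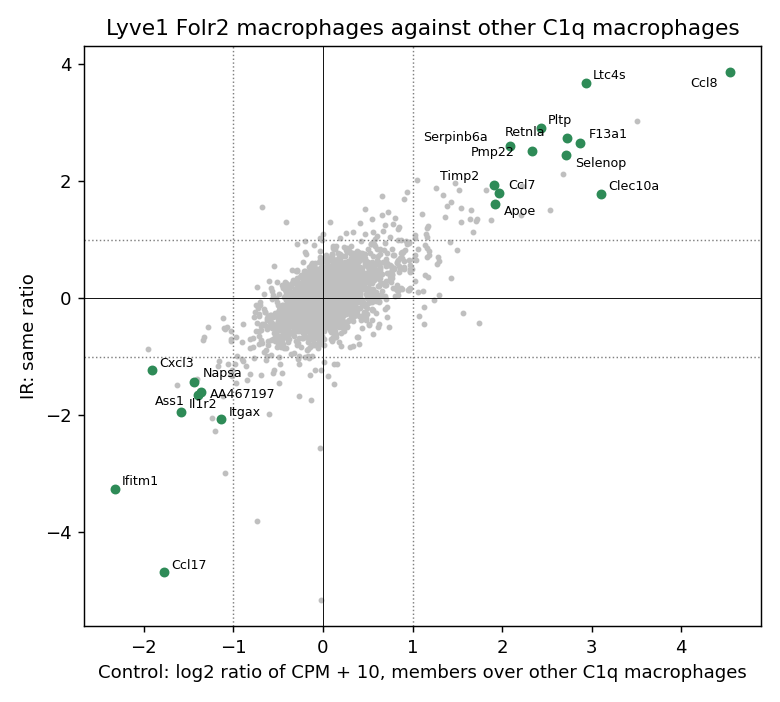
Log2 ratio, on CPM plus 10, of Lyve1 Folr2 members over the other C1q macrophages in Control (x axis) and in IR (y axis), 1 point per gene. The points on the upper right include Ccl8 (4.54 and 3.86) and Ltc4s (2.93 and 3.68), and those on the lower left include Ifitm1 (-2.32 and -3.25) and Ccl17 (-1.77 and -4.68).

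Between the libraries, IR members had higher levels of 11 of 21 counted interferon-response genes, and lower levels of 11 of 17 counted resident and alternative activation genes, Ccl8 among them, and of 3 of 6 counted MHC class II genes. Of 2775 genes with a mean of at least 50 CPM in members, 56 (2.02%) were higher in IR and 42 (1.51%) were lower. The limits were a log2 ratio of at least 1 in size and an exact interval of the UMI ratio that excluded 1. The median log2 ratio of all counted genes was 0.007. The same limits in the other C1q macrophages gave 77 of 2665 genes higher (2.89%) and 15 lower (0.563%), with a median of -0.006. Below, a gene is called higher or lower in IR without further words only when it passed these limits, and values are given for the rest. With 1 library a group no p-value exists for any of these differences.

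**Figure D3:**
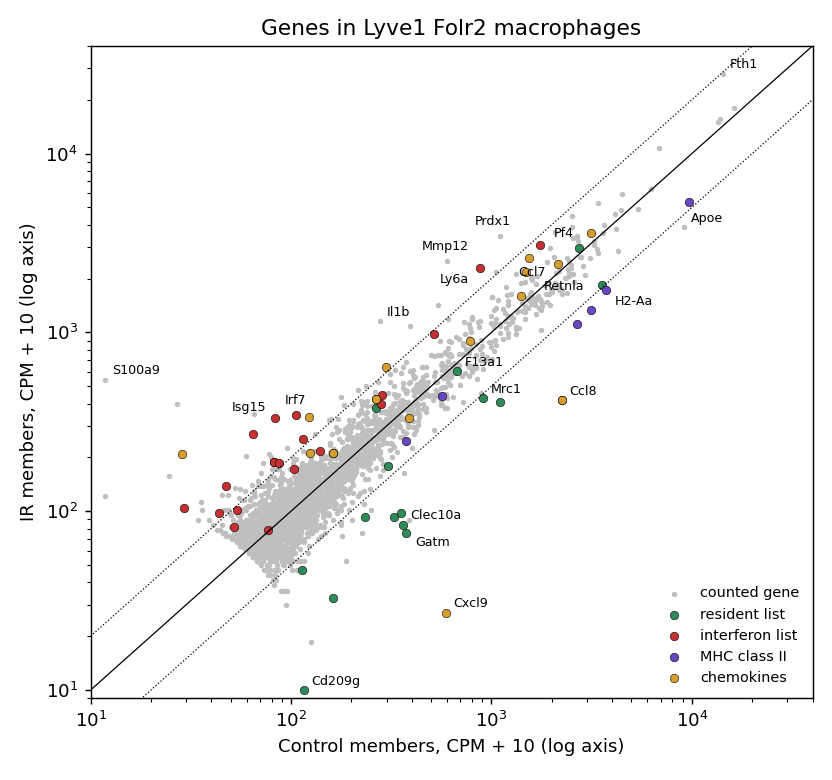
Level of each counted gene (CPM plus 10, log axes) in Control members (x axis) and IR members (y axis), with genes of 4 lists in color and dotted lines at 2-fold. Ccl8 (2234 and 407 CPM) and Cxcl9 (585 and 17.1 CPM) lie far below the diagonal, and Isg15 (73.2 and 322 CPM) and Irf7 (95.6 and 336 CPM) above it.

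The resident and alternative activation genes outside the rule were lower in IR as a group. Of 26 genes 17 were counted, 11 were lower, 0 were higher and 14 had a ratio below 0, with a median of -1.34 against 0.007 for all genes. The same genes had a median of -0.78 in the other C1q macrophages, where 5 of 10 counted genes were lower. That median is drawn toward 0, because several of these genes were near or below the added 10 CPM there. Fcna was at 9.30 and 3.49 CPM, and Cd209g at 0.181 and 0 CPM. Gas6 was at 10.7 and 1.31 CPM (-0.87), with an exact log2 interval of -4.50 to -1.86 without the added 10 CPM. The sizes of the 2 medians are therefore not comparable. Ccl8 had 3693 UMIs in Control members, or 2234 CPM (2163 to 2308), and 143 UMIs in IR members, or 407 CPM (343 to 480). This was a log2 ratio of -2.43, against -1.74 in the other macrophages, where Ccl8 was at 86.4 and 18.8 CPM. The 10 CPM added to each level weighed more at those lower levels. Without it the exact log2 intervals of the ratio overlapped, at -2.71 to -2.21 in members and -2.54 to -1.88 in the others. Ccl8 was found in 131 of 192 Control members (68.2%) and 14 of 33 IR members (42.4%), and the median cell was at 502 CPM in Control and 0 in IR.

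Other genes of this list encode receptors and lectins that bind sugars or soluble proteins. Mrc1, the mannose receptor, was at 898 CPM in Control and 419 CPM in IR (log2 -1.08). It was found in 95.8% and 72.7% of members. Clec10a, a galactose-binding lectin, was at 350 and 74.1 CPM (-2.10), but at -0.85 among members with 3 to 9 resident UMIs and -0.70 among those with no Lyve1 UMI. Its neighbor Mgl2 was at 344 and 88.3 CPM (-1.85). Fcna, a ficolin that binds bacterial sugars, was at 153 and 22.8 CPM (-2.31). Cd209g, of the same lectin family as Cd209f, was at 106 CPM in Control and at 0 UMIs in IR, and was at least 12.5-fold lower against a floor of 3 UMIs. Cd163, below the 50 CPM limit and named after its values were seen, was at 57.5 CPM in Control (28 of 192 members) and at 0 UMIs in IR, at least 6.73-fold lower. In Control it was at 167 CPM in cells with a Lyve1 UMI, of which IR had 6. It was at 12.8 CPM in those without and 10.1 CPM at 3 to 9 resident UMIs. In these last 2 subsets the interval of the ratio included 1. Vsig4, a complement receptor of resident macrophages that was also below the limit, was at 5.44 CPM in Control and 22.8 CPM (8 UMIs in 2 cells) in IR (1.09), and the phosphatidylserine receptor Timd4 at 9.68 and 5.70 CPM (-0.33). With no minimum level 15 of the 26 genes were lower and 1 was higher. The Cd209 genes are close copies of each other, so reads could be shared or lost between them.

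Selenop, Igf1, Gas6 and Gatm of the list were also lower. Selenop was at 1091 CPM in Control and 396 CPM in IR (-1.44). Igf1, a growth factor, was at 103 and 37.0 CPM (-1.27). Gas6, which bridges dying cells to uptake receptors, was at 224 and 82.6 CPM (-1.34). Gatm, the enzyme that starts creatine synthesis from arginine, was at 364 and 65.5 CPM (-2.31). Outside this list, Slc7a2 of the arginine list, which brings arginine into the cell, was at 376 and 79.8 CPM (-2.11). Igfbp4, a binding protein of insulin-like growth factors, was at 216 and 65.5 CPM (-1.58), and the Fc receptor-like gene Fcrls at 169 and 62.7 CPM (-1.30). Tmem176a and Tmem176b, a pair of membrane proteins whose genes lie side by side, were at -1.83 and -1.31.

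The other 6 counted resident genes were within the limits. F13a1 was at 664 CPM in Control and 598 CPM in IR (-0.15), Ltc4s at 255 and 370 CPM (0.52) and Pf4, a platelet-type chemokine carried by tissue macrophages, at 2713 and 2968 CPM (0.13). Ccl24 was at 153 and 202 CPM (0.39) and the scavenger receptor Stab1 at 295 and 168 CPM (-0.78). Ltc4s differed between subsets of members, with 1.72 among cells with no Lyve1 UMI, 1.39 at 3 to 9 resident UMIs and 1.34 without members carrying UMIs of other lineages, all past the limits, and -0.35 at 10 or more resident UMIs. Retnla, at 3546 CPM in Control members against 1840 CPM in IR members (-0.94), did not reach the 2-fold limit, and few IR cells carried it. It was found in 46.4% of Control members and in 5 of 33 IR members (15.2%), and 1 IR cell held 295 of the 646 UMIs. Its log2 ratio depended on the cells used: it was -1.64 without the top cell of each library, with an interval that excluded 1, but -0.32 among members with 3 to 9 resident UMIs, -0.15 without members carrying UMIs of other lineages and -0.13 without those carrying Lyve1. Retnla and Ccl8 occurred together in 61 Control members (31.8%) and in 1 IR member (3.03%), and neither was found in 33 (17.2%) and 15 (45.5%).

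Interferon-response genes were higher in IR members. Of 28 genes 21 were counted, 11 were higher, 0 were lower and all 21 had a ratio above 0, with a median of 1.09 against 0.007 for all genes. In the other C1q macrophages 16 of 20 counted genes were higher, with a median of 1.92 (1.72 over the genes counted in members). The summed list went from 5029 CPM in Control members to 10495 CPM in IR members, and from 3185 to 10377 CPM in the other macrophages. Control members thus started from a larger sum than the other Control macrophages, and the IR sums of both sets were close. The difference between members and others was not tested.

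Isg15, a ubiquitin-like protein attached to other proteins during an interferon response, was at 73.2 CPM (60.7 to 87.5) in Control members and 322 CPM (265 to 387) in IR members. Its log2 ratio was 1.996, against 2.80 in the other macrophages, and it was found in 56 of 192 and 26 of 33 members. Irf7, a transcription factor that amplifies type I interferon, was at 95.6 and 336 CPM (1.71, others 2.94), with the median cell at 0 and 343 CPM. Ms4a4c, a membrane protein gene of myeloid cells, was at 54.5 and 262 CPM (2.08, others 2.55), and Ifit3, an antiviral protein, at 19.4 and 94.0 CPM (1.83, others 2.93). Rsad2 (viperin), added after its values were seen, was at 72.0 and 179 CPM (1.21, others 2.59). In the other Control macrophages Rsad2 was at 28.9 CPM, below the 72.0 CPM of the members.

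Promoter windows of 250 bases before the start site, from RefSeq (GRCm38.p6), are shown for Isg15, a gene higher in IR, and for Ccl8 and Retnla, the resident markers outside the rule. Capitals mark matches to GAAANNGAAA, the core of the interferon-stimulated response element, in Isg15, and to TTCNNNNGAA, a STAT6-type site, in Retnla. Both motifs were searched on both strands. The windows lie at chr4:156200819-156201068 on the minus strand (Isg15), chr11:82114935-82115184 on the plus strand (Ccl8) and chr16:48842359-48842608 on the plus strand (Retnla), and each reads 5′ to 3′ toward the gene. For Retnla the RefSeq start lies downstream of the GENCODE start given above, so part of that window falls inside the GENCODE gene.
Isg15: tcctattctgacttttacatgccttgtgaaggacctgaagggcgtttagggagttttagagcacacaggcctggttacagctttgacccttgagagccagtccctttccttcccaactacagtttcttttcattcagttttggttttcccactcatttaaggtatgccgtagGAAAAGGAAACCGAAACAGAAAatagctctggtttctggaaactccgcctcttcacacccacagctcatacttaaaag
Ccl8: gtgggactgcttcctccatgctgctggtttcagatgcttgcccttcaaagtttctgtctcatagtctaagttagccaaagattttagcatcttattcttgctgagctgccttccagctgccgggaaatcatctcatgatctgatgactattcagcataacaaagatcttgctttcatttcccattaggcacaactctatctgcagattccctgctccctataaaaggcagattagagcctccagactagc
Retnla: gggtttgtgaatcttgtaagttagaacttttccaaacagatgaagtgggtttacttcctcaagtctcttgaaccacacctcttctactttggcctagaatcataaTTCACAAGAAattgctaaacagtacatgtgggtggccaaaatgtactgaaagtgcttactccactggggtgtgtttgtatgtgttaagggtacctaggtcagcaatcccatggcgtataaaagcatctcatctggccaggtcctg
The Isg15 window held 3 overlapping matches of the interferon motif. This motif occurred in 12 of 23 interferon-list genes with a promoter entry (52.2%) and in 1 of 24 resident genes (4.17%). It was in 7 of 39 genes higher in IR (17.9%) and in 1 of 29 genes lower in IR (3.45%). Its share was 99 of 2241 counted genes (4.42%) and 936 of 27025 genes in all (3.46%). The STAT6-type letters occurred in 3 of 24 resident genes (12.5%) and 2 of 29 genes lower in IR (6.9%). They were in 5.44% of counted genes and 6.76% of all genes. The gamma-activated site occurred in 5 of 39 genes higher in IR (12.8%), 0 of 29 lower in IR and 6.96% of counted genes. No window shown held it, and the Ccl8 window held none of the 3 motifs. A match of letters describes the sequence and does not show that a factor binds it.

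The MHC class II list was also lower in irradiated tumors' members. Of 8 genes 6 were counted, 3 were lower, 0 were higher and all 6 had a ratio below 0, with a median of -0.98, against -0.50 for the same genes in the other macrophages. The 3 lower genes encode the classical chains that present peptide to CD4 T cells. H2-Aa was at 3719 CPM in Control and 1709 CPM in IR (-1.12), H2-Ab1 at 3117 and 1319 CPM (-1.23) and H2-Eb1 at 2651 and 1102 CPM (-1.26). The invariant chain Cd74 was at 9628 and 5338 CPM (-0.85), and the peptide-loading genes H2-DMb1 and H2-DMa were at -0.60 and -0.35. The median cell for H2-Aa was at 2791 CPM in Control and 1125 CPM in IR. Among members with no UMI of Ly6c2, Ccr2 or Chil3 (93 Control and 10 IR cells), 0 of the 6 genes passed the limit, and the median was -0.53.

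MHC class I genes, which interferon also induces, had ratios above 0 for all 13 counted genes of 14, with a median of 0.50 (others 0.58), and H2-T22 was higher (85.3 and 216 CPM, 1.25). Outside that list H2-Q6 was at 67.8 and 199 CPM (1.43). The H2-Q and H2-T genes are near-identical copies, so their single values are uncertain.

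Chemokines diverged from each other. Of 19 genes 15 were counted, 3 were higher and 2 lower, with a median of 0.39 (others 0.82). Cxcl9, which draws T and NK cells through CXCR3, was at 585 CPM (549 to 623) in Control members and 17.1 CPM (6.27 to 37.2, 6 UMIs) in IR members, a log2 ratio of -4.46. It was found in 50 of 192 and 4 of 33 members. In the other C1q macrophages Cxcl9 was at 980 CPM in Control and 370 CPM in IR (-1.38). Cxcl10, which uses the same receptor, was at 257 and 416 CPM in members (0.67). The monocyte chemokines of the CCR2 group, encoded near Ccl8 on chromosome 11, were within the limits. Ccl7 was at 1538 and 2598 CPM (0.75), Ccl2 at 1472 and 2156 CPM (0.55) and Ccl12 at 769 and 886 CPM (0.20), where 1 IR cell held 156 of 311 UMIs. Cxcl3 was at 18.7 and 199 CPM (2.86), Ccl5 at 113 and 328 CPM (1.46) and Ccl4 at 289 and 632 CPM (1.10). Among members with no UMI of Ly6c2, Ccr2 or Chil3, 0 chemokines were higher and 7 of 14 counted were lower, and the log2 ratios turned to -1.58 for Ccl7, -1.14 for Ccl2 and -1.61 for Ccl12. Without the top cells Ccl12 was at -0.64.

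Several large differences rested on few IR cells, so the values are given with and without them. S100a9, an alarmin abundant in neutrophils, had 3 UMIs in Control members and 187 in IR members, a ratio of 293 (98.9 to 1.44e+03), but it was found in 3 IR cells, of which 1 held 115 UMIs. S100a8 was at 16.9 and 390 CPM (3.89). Of the 324 S100a8 and S100a9 UMIs in IR members 194 and 121 lay in 2 cells. Gzma, a granzyme of NK and cytotoxic T cells, was at 55.7 and 339 CPM (2.41) and was found in 8 IR cells. When members with 2 or more UMIs of another lineage list were left out (124 Control and 22 IR cells remained), the log2 ratios were -0.032 for S100a8, 0.47 for S100a9, 0.65 for Gzma and -0.58 for Ccl5. In the same cells they were 2.62 for Isg15, 2.44 for Irf7, -1.31 for Ccl8 and -4.56 for Cxcl9.

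The elastase gene Mmp12 was at 593 CPM in Control members and 2495 CPM in IR members (2.05), but 1 IR cell held 680 of the 876 UMIs. Without the top cell of each library the ratio was 0.39, past no limit. The peroxiredoxin gene Prdx1 was at 1091 and 3453 CPM (1.65), with 692 of 1212 UMIs in 1 cell and a ratio of 0.64 without the top cells. By its UMIs and CPM this was the same barcode as for Mmp12, the deepest IR member, with 34788 UMIs. Il1b, a proinflammatory cytokine, was at 267 and 1145 CPM (2.06), with 187 of 402 UMIs in 1 cell. Without the top cells its ratio was 1.48. In members with 3 to 9 resident UMIs Il1b was at 238 and 1403 CPM (2.51). In those with 10 or more it was at 323 and 407 CPM (0.32). Mmp19, another metalloproteinase, was at 49.6 and 194 CPM (1.77) and was found in 46 Control and 17 IR cells. Plac8, which marks recent monocytes, was at 384 and 1071 CPM (1.46).

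The remaining lists were mostly within the limits. Of the inflammatory and NF-kB list 2 of 17 counted genes were higher, Il1b and the lectin Clec4e, with a median of 0.031. Transcription factors of macrophages had 0 of 12 past a limit and a median of -0.29, where Maf was at 406 and 288 CPM, Klf4 at 593 and 370 CPM and Irf8 at 215 and 348 CPM. Of the p53 target list 0 of 8 counted genes passed a limit, with a median of 0.52 (others 0.09). The cell cycle inhibitor Cdkn1a was at 389 and 598 CPM and the apoptosis gene Bax at 206 and 333 CPM. The immediate-early and heat shock list had 1 of 19 lower, the chaperone Hspa1a (79.3 and 25.6 CPM, -1.33), and a median of -0.14.

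The heme and iron list had 1 of 8 counted genes higher and 1 lower, with a median of 0.60 (others 0.28). The heme transporter Slc48a1 was at 70.2 and 162 CPM (1.10) and transferrin, Trf, at 357 and 154 CPM (-1.16). Heme oxygenase Hmox1 was at 598 and 1176 CPM (0.97). The ferritin chains had 0.97 for Fth1 and 0.65 for Ftl1. Among IR members 1 cell held 5444 of the 14278 UMIs of this list. The Fth1 ratio was 0.38 without the top cell of each library and 0.20 without members carrying UMIs of other lineages. It was 1.84 without members carrying Ly6c2, Ccr2 or Chil3, and it stayed above 0 in all 21 settings. Of the complement list other than C1q, C4b, of the classical pathway, was lower, at 191 and 79.8 CPM (-1.16), and the alternative-pathway protease Cfb was higher, at 175 and 385 CPM (1.09).

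Lipid-handling genes had 1 of 19 counted genes higher and 1 lower, with a median of 0.19. Apoe was at 9124 and 3874 CPM (-1.23), with the median cell at 8132 and 1903 CPM, and the scavenger receptor Cd36 at 148 and 316 CPM (1.05). Among uptake receptors for apoptotic cells Cd36 was higher and Gas6 lower, and 8 of 9 counted genes had a ratio below 0, with a median of -0.64 (others -0.47). The Fc receptor list had Fcgrt, which rescues IgG and albumin, lower (318 and 82.6 CPM, -1.82), and the other 5 within the limits. Of the arginine and suppression list only Slc7a2 passed a limit among 10 counted genes. Arg1 was at 3232 and 3057 CPM. Of the repair list Mmp12 and Mmp19 were higher, and the other 11 were within the limits. Of the growth factor and chemokine receptors, the fractalkine receptor Cx3cr1 was lower (98.01 and 42.7 CPM, -1.03), and the other 14 counted were within the limits.

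The study is about RNA m6A methylation, so its readers and writers were examined too. Of 10 genes 3 reached the 50 CPM limit and 0 passed the fold limits. Alkbh5 was at 85.3 and 62.7 CPM, Ythdc1 at 76.8 and 57.0 CPM and Wtap at 64.7 and 62.7 CPM. The m6A reader Ythdf2 was at 50.8 CPM (40.5 to 62.9) in Control members and 39.9 CPM (21.8 to 66.9) in IR members, and its intervals overlapped.

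**Figure D4:**
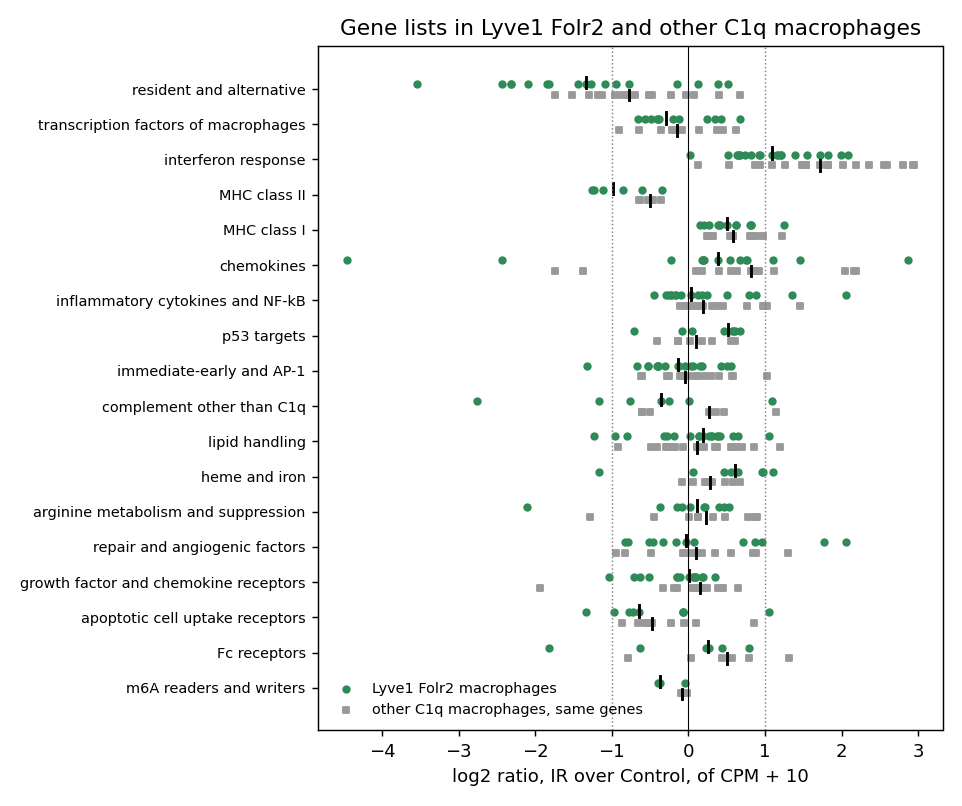
Log2 ratio of IR over Control (x axis, on CPM plus 10) for each counted gene of the lists, in members (circles) and for the same genes in the other C1q macrophages (squares), with bars at the medians. The interferon medians are 1.09 in members and 1.72 in the others, and the resident medians -1.34 and -0.78.

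The members were not uniform. In Control, 70 cells with a Lyve1 UMI had 4601 CPM of Ccl8, 6336 CPM of Retnla, 855 CPM of Clec10a, 167 CPM of Cd163 and 464 CPM of Gas6. The 122 cells without one had 1270, 2410, 145, 12.8 and 127 CPM of the same genes. The order was the other way for Arg1 (633 and 4291 CPM), Slc7a2 (79.4 and 497 CPM), Cxcl9 (232 and 729 CPM) and Mmp12 (134 and 781 CPM). Median depth was 5287 UMIs with a Lyve1 UMI and 8664 without. These values describe cells of 1 library and carry no test. The 6 IR cells with Lyve1 held 1091 CPM of Ccl8 and 0 UMIs of Retnla.

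Ccl8 and Isg15 were also read within strata of the resident count. Among members with 3 to 9 resident UMIs (124 Control and 25 IR cells) Ccl8 was at 1088 and 208 CPM, and among those with 10 or more (68 and 8 cells) at 4471 and 979 CPM. Isg15 was at 72.3 and 269 CPM in the lower stratum and at 75.0 and 473 CPM in the upper. H2-Aa was at 3266 and 1576 CPM and at 4603 and 2091 CPM. These 3 genes, chosen after their values were seen, kept their direction in both strata. Mmp12 did not, with log2 ratios of 2.11 in the lower stratum and -1.59 in the upper. Retnla was at 3112 and 2483 CPM in the lower stratum and at 4394 and 0 CPM in the upper, where IR rested on 8 cells. S100a9 in IR lay almost wholly in the upper stratum, with 186 of 187 UMIs.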

How the data were processed

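CD45+ cells of 1 Control and 1 IR library were measured with 10x Chromium 3' droplet sequencing. The values deposited by the authors are whole UMI counts from unfiltered matrices (mm10). The matrix headers name Cell Ranger 4 and the submitters' processing notes Cell Ranger 6.0.1. The libraries held 48593879 and 42406461 UMIs. At 2000 or more UMIs they shared 6 barcodes, none a member. Free RNA was estimated at 9.79% of member UMIs in Control and 15.5% in IR. For this, T and NK cell list UMIs of members counted as free RNA, against these lists' share in barcodes under 100 UMIs. In IR members the NK cell list was found in 9 of 33 cells, 1 of which held 67 of its 190 UMIs. Whether mixed barcodes raised the estimate was not tested.

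Members and lists were chosen with earlier results of these data known. Counts were summed over cells and compared as log2((IR CPM + 10)/(Control CPM + 10)), with exact Poisson, conditional ratio and Clopper-Pearson 95% intervals. Counted genes had a mean of at least 50 CPM and excluded rule, mitochondrial and sex-linked genes. Named genes were the 14 largest ratios past the limits in each direction (12 and 8 for members over others), at a mean of at least 100 CPM, the markers, the MHC class II, chemokine and m6A lists, and up to 4 per other list. Further genes named beside them, among them positions, strata and identity genes, were chosen after their values were seen. No doublets were removed: DoubletFinder, used by the study, was not used here, and Scrublet called 0 in both libraries. Alternatives changed scaling (edgeR TMM), pseudocount, filters, limits and cells. Scripts were tested on simulated data and used Python 3.11.15, numpy 2.4.6, scipy 1.17.1, pandas 2.3.3, scanpy 1.11.5, matplotlib 3.10.9, R 4.3.3 and edgeR 4.0.16. Positions are from GENCODE vM21. The values of 1 listed gene are not reported here.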

Additional observations from a re-analysis of the deposited data

Results flagged for a closer look

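Barcodes with under 100 UMIs, which enter no comparison above and hold mostly free RNA, carried markers of cells other than macrophages at different levels in the libraries. The summed neutrophil list was at 1342 CPM in IR and 288 CPM in Control. The summed NK cell list was at 2745 CPM in IR and 1103 CPM in Control. Both were picked out because a signal in unused data lay above its level in the Control library, and both lists were also higher in IR members (1148 against 68.4 CPM and 541 against 122 CPM). The part of this free RNA in the members' values was not tested beyond its subtraction as an alternative.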

How the results depend on the processing

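No paired analysis was possible because each group was 1 library and no test was made. The cause of the changes below was not tested. The ratio of member shares, 0.58, was below 1 under all 17 alternatives. It was 0.40 at 10 or more resident UMIs, 0.35 without Folr2 in the sum and 0.23 over all barcodes. The 56 higher genes became 29 without the top cell of each gene, 27 at a pseudocount of 50 CPM, 99, 35 and 137 at a minimum of 20, 100 or no CPM, 122 without members carrying UMIs of other lineages, 142 without those carrying Ly6c2, Ccr2 or Chil3, and 166 at 10 or more resident UMIs. The 42 lower genes became 64 without mitochondrial and ribosomal genes in the total, and 64, 21, 110, 23, 203, 80, 156 and 90 in that same order. Without members holding 3 or more UMIs of S100a8 and S100a9 or of the T and NK cell lists they numbered 67. This setting, those of 10 or more and of 3 to 9 resident UMIs, and that of no Lyve1 UMI were chosen after seeing the data.

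The 11 higher interferon genes became 6 at a pseudocount of 50 CPM, 18 at 2 or more resident UMIs and 21 without other-lineage members. The 3 lower MHC class II genes became 0 without members carrying Ly6c2, Ccr2 or Chil3 (93 and 10 cells). The 11 lower resident genes stayed between 8 and 15. Of genes higher in members than in other macrophages in both libraries (41), 23 were left at a pseudocount of 50 CPM and 68 were found with no minimum. Of those lower (20), 5 were left at that pseudocount, 12 at 100 CPM and 12 at 2 or more resident UMIs.

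Directions were followed gene by gene only for the largest ratios and some further genes. Among these, of the genes past the limits, S100a8 (-0.032) and Ccl5 (-0.58) turned without other-lineage members. S100a9 (-0.19), Cxcl3 (-0.38), Gzma (-1.48) and Ccl5 (-1.74) turned without members carrying Ly6c2, Ccr2 or Chil3. Mmp12 (-1.59) and Cx3cr1 (0.074) turned at 10 or more resident UMIs. Of all 56 higher and 42 lower genes, 49 and 40 kept their sign without other-lineage members. The numbers were 43 and 42 without members carrying Ly6c2, Ccr2 or Chil3, and 51 and 41 at 10 or more resident UMIs. Of the followed genes within the limits, Ccl7 (-1.58), Ccl2 (-1.14) and Ccl12 (-1.61) turned without members carrying Ly6c2, Ccr2 or Chil3. F13a1 (0.23) and Ltc4s (-0.35) turned at 10 or more resident UMIs. Ccl12 turned in 4 other settings, among them without the top cells (-0.64), and F13a1 kept its sign in 17 of 21 settings. Without the top cells, 28 of the 56 higher and 35 of the 42 lower genes were still past the limits, and 54 and 42 kept their sign. TMM scaling shared all 56 and 42. With 33 IR cells and 351040 UMIs, a gene at 0 in IR members cannot be placed below 8.55 CPM.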
